A study of Saccharomyces cerevisiae with 12 samples.

Results

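The data described here are from Cyc8p depletion carried out in the presence of mannose, a sugar that blocks the binding of cells to one another by flocculins, so that the cultures did not flocculate. The 6 samples were chosen by their labels, 3 of the group +Rap+Man and 3 of the group -Rap+Man, out of 12 in the series. All came from the Cyc8-AA strain of *Saccharomyces cerevisiae*, a Mata strain of the HHY221 background with the alleles tor1-1, fpr1::loxP-LEU2-loxP and RPL13A2xFKBP12::loxP and the added CYC8-FRB::HIS3, grown in YPD with 2% glucose at 30 °C and harvested in log phase. The +Rap+Man samples received rapamycin at 1 µg/ml together with mannose (0.25 M) at an OD600 of about 0.3, the -Rap+Man samples received mannose and the solvent, and RNA was taken from both after 4 h. Cultures were divided in 2 for this, and replicates 1 to 3 are given as biological replicates. All samples thus carry the rapamycin-resistant *tor1-1* allele, lack *FPR1* and carry the tagged proteins. No strain without the FRB tag received rapamycin among the samples used here, and an effect of rapamycin or of its binding to the anchor cannot be told apart from the loss of Cyc8p.

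Cyc8p (also called Ssn6p) and Tup1p form a corepressor that does not bind DNA itself but is brought to promoters by sequence-specific repressors such as Mig1p, Rox1p, Crt1p, Nrg1p and the mating-type factor α2. It is known for silencing genes of alternative sugar use, oxygen limitation, DNA damage, mating type, osmotic stress and flocculation during growth in rich glucose medium. In the anchor-away method, rapamycin links the FRB tag on the protein of interest to an FKBP12 tag on a ribosomal protein, which carries the tagged protein out of the nucleus as ribosomal subunits are exported.

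The table holds 6775 genes, with library totals between 41896192 and 48675825 reads in +Rap+Man and between 35905327 and 51088194 in -Rap+Man. Counts were scaled by TMM factors (trimmed mean of M-values, which assumes that most genes do not change) to the mean library size of the series and are called normalized counts. Genes count as up- or downregulated where limma, with p-values adjusted by Benjamini-Hochberg, gave 0.01 or less and where the log2 fold change (+Rap+Man over -Rap+Man, after adding 2 counts) reached 1 in size. The filter on low counts left 6325 genes for the test. The check of *FPR1* fitted the labels, since the disrupted gene had 0 reads in 5 samples and 1 read in the sixth. For the labelled mating type, the pheromone gene of a cells *MFA1* had 17562, 12640.1 and 18070.1 normalized counts in +Rap+Man, against 4729, 3719.7 and 4590.0 in -Rap+Man. Of the alpha-specific genes, *MF(ALPHA)1* had 176, 168 and 154 in +Rap+Man, against 6.2, 15.6 and 12.3 in -Rap+Man. Another alpha-specific gene, *SAG1*, was well counted in both groups (values below), so not every marker separated the mating types. The targeted gene does not test the labels, because anchor-away moves the protein. *CYC8* had 1306, 1724 and 1499.8 normalized counts in +Rap+Man, against 1881, 1999.8 and 1684 in -Rap+Man (log2 fold change -0.30, standard error 0.14, adjusted p = 0.11), and its partner *TUP1* had 15843, 16641 and 14066 in +Rap+Man, against 15744, 12663 and 12412 in -Rap+Man (0.19, standard error 0.14, adjusted p = 0.29). No 2 samples of a group were alike within sampling noise (chi-square divided by the number of genes, 77.7 to 341.3), the largest values being those of -Rap+Man replicate 1 against the other 2 -Rap+Man samples.

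On the TMM scale, far more genes rose than fell in the +Rap+Man samples, an order that reversed with library totals alone. Of the 6325 genes tested, 939 (14.8%) were upregulated and 164 (2.59%) were downregulated. In every called gene the 3 samples of one group lay apart from the 3 of the other. The thresholds nearly ensure this, and some genes that were not called lay apart as well. The upregulated genes had a median log2 fold change of 2.11, and 497 of them rose by at least 4-fold and 175 by at least 16-fold. The downregulated genes had a median of -1.18, and 9 of them fell by at least 4-fold and none by 16-fold. Genes that rose took 36.8%, 36.4% and 35.3% of all counted reads in the +Rap+Man samples, against 11.0%, 9.79% and 10.1% in the -Rap+Man samples. The number of genes called lower depended on the scaling. With counts divided by library totals alone, an alternative chosen after seeing the data, every log2 fold change shifted down (the median of all genes by -0.610), and 596 genes were upregulated and 1782 downregulated, so that 25.1% of the calls were increases, against 85.1% with TMM factors. The 596 were all among the 939, and the 1782 held all of the 164. Fold changes below are given on the TMM scale, and an increase smaller than this shift generally became a decrease with library totals alone.

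**Figure D1:**
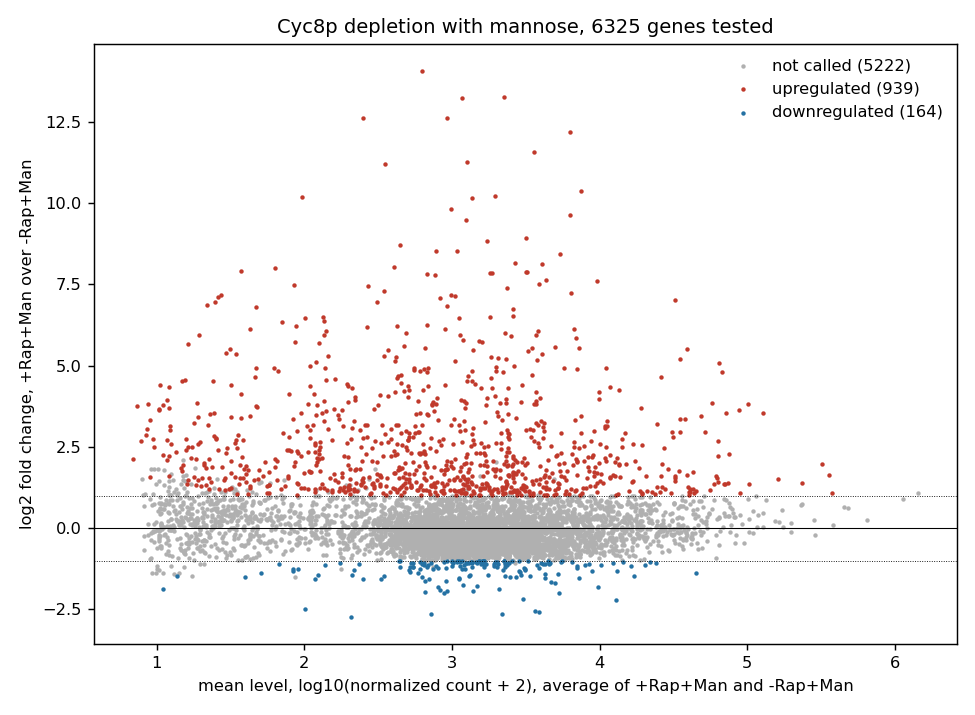
Log2 fold change (+Rap+Man over -Rap+Man) of each of the 6325 genes tested against its mean level, the average of log10(normalized count + 2) over the groups. Red points are the 939 upregulated genes, blue points the 164 downregulated genes and grey points the others, and dotted lines mark a log2 fold change of 1 and -1. The red points reach 14.05 and the blue points -2.72.

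The largest increases included genes of the cell wall, of glycerol use and of spore wall formation. *TIR1*, a cell wall mannoprotein made by yeast when oxygen is scarce, had 435818, 487223 and 358152 normalized counts in +Rap+Man, against 111, 68.6 and 94.2 in -Rap+Man (log2 fold change 12.18, standard error 0.19). *DAK2*, which encodes a dihydroxyacetone kinase, had 202453, 223019 and 166584 in +Rap+Man, against 66.9, 51.5 and 70.8 in -Rap+Man (11.57, standard error 0.16). *DIT1*, which makes the dityrosine precursor of the spore wall, had 181603, 155662 and 175628 in +Rap+Man, against 126, 265 and 295 in -Rap+Man (9.62, standard error 0.28). In each of the 3 genes the groups lay far apart, and the samples of a group were close to one another by comparison. *DAN1*, another anaerobic mannoprotein, was close to the counting limit in the -Rap+Man samples, with 76748, 84982 and 74169.7 in +Rap+Man, against 3.1, 0.78 and 4.9 in -Rap+Man, so its log2 fold change of 14.05 depended on the number of counts added (14.71 with 0.5 added and 12.83 with 8 added) and is no bound. The uncharacterized gene *YLR012C* was in the same position, with 2703, 3290 and 3641 raw counts in +Rap+Man and 0, 1 and 3 in -Rap+Man. The seripauperin *PAU5* (log2 fold change 10.15), the ubiquitin ligase receptor *GID10* (9.47), the sodium-phosphate cotransporter *PHO89* (8.92), the hexose transporter *HXT10* (8.70), the dityrosine gene *DIT2* (8.53) and the glycerol importer *STL1* (8.52) completed, with *FLO11*, the 12 largest increases. This ranking takes called genes with at least 50 raw counts in every +Rap+Man sample and no near-identical copy.

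The largest decreases were smaller and of mixed function. *ARO10*, the decarboxylase of the Ehrlich pathway that turns aromatic amino acids into fusel alcohols, had 959, 773 and 805 normalized counts in +Rap+Man, against 8049, 4943 and 3791 in -Rap+Man and fell by 2.66 on the log2 scale (standard error 0.25). *PRY3*, a cell wall protein of the sterol-binding CAP family, had 1652, 1583 and 1485 in +Rap+Man, against 11511, 7575 and 9434 in -Rap+Man and fell by 2.57 on the log2 scale (standard error 0.16). *SAM2*, one of the S-adenosylmethionine synthetases, had 1429.7, 1829 and 1273 in +Rap+Man, against 11154, 8176 and 7294 in -Rap+Man and fell by 2.55 on the log2 scale (standard error 0.19). The +Rap+Man samples lay close together in all 3 genes, while the -Rap+Man samples spread more widely in *ARO10*, replicate 1 being the highest. The mitotic cyclin *CLB2* (log2 fold change -2.01), the ammonium permease *MEP2* (-1.99), the bud site gene *BUD9* (-1.96), the peroxisomal import gene *PEX2* (-1.95), the Pho85p cyclin *PCL9* (-1.94), the daughter cell genes *DSE2* (-2.20) and *DSE4* (-2.18), and the uncharacterized *YDR222W* (-2.63) and *YLR112W* (-2.72) made up the rest of the 12 largest decreases.

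**Figure D2:**
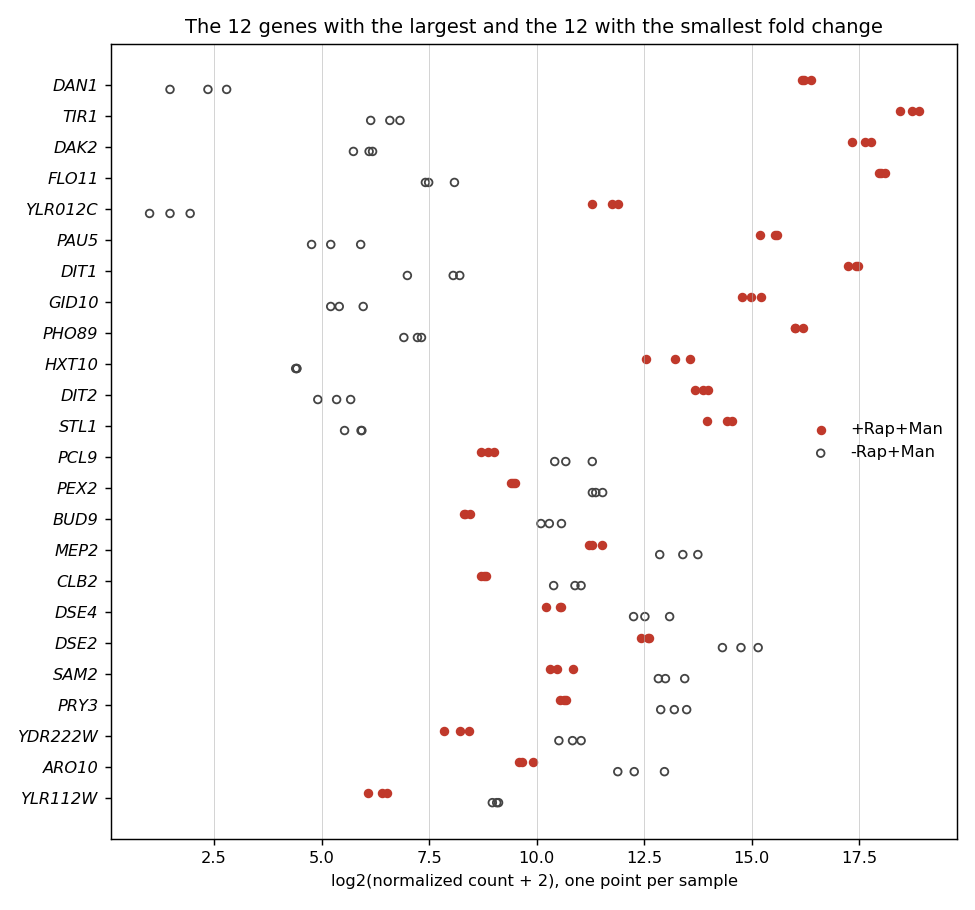
Normalized counts of the 24 genes with the largest increases and decreases, as log2(normalized count + 2), with 1 point per sample, filled for +Rap+Man and open for -Rap+Man. Genes are those called, with at least 50 raw counts in every sample of the higher group and no near-identical copy. In each gene the points of the groups are apart, by the most in DAN1 and by less in the 12 lower genes.

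Genes were then read by 64 lists of pathways and families, which hold 1339 genes, among them 332 of the upregulated and 64 of the downregulated genes. In 46 lists more members were up- than downregulated and in 11 lists more were down- than upregulated. The counts of each list are to be read against the 14.8% and 2.59% of all genes, and its median against the median of -0.04 over all genes tested. At an adjusted p of at most 0.01 without the fold threshold, limma gave 1268 of the 6325 genes as higher and 982 as lower. Counts of a list under library totals alone are to be read against 596 up- and 1782 downregulated genes of the 6325. With library totals alone the median of 12 lists changed sign, each of them above 0 on the TMM scale.

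**Figure D3:**
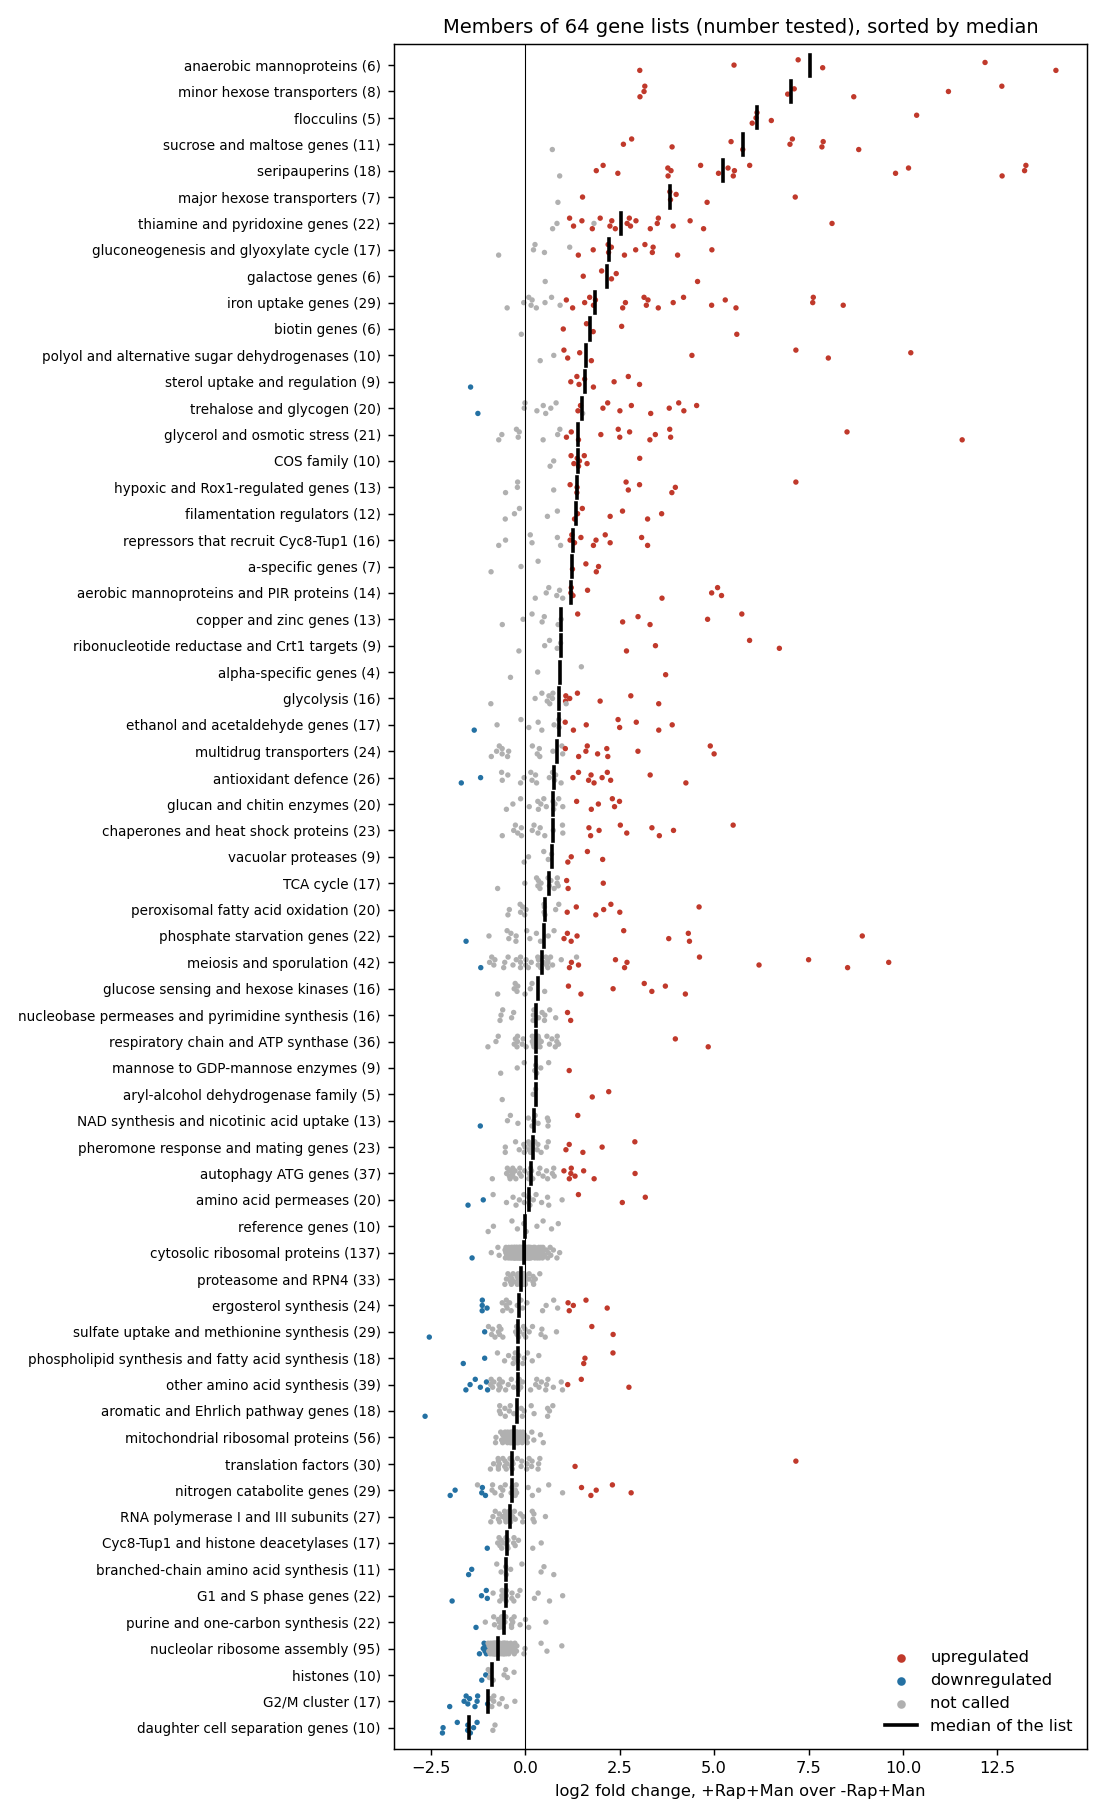
Log2 fold change (+Rap+Man over -Rap+Man) of every tested member of 64 gene lists, 1 point per gene, with the number tested in brackets and a black bar at the median of each list. Red points are upregulated, blue points downregulated and grey points not called. Medians run from 7.55 in the anaerobic mannoproteins to -1.49 in the daughter cell separation genes.

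Genes of wall adhesins and of wall proteins made without oxygen rose in nearly every member tested. All 5 flocculin genes, which encode the lectins that bind mannose chains of neighbouring cells and the adhesin Flo11p, were upregulated, with log2 fold changes between 6.01 and 10.36. *FLO11* had 257051, 283335 and 262332 normalized counts in +Rap+Man, against 271, 178 and 169 in -Rap+Man (10.36, standard error 0.18), and *FLO5* had 55410.0, 64631 and 48718 in +Rap+Man, against 845, 771 and 766 in -Rap+Man (6.13, standard error 0.14). The groups were far apart in both genes. *FLO10* rose by 6.01 on the log2 scale, and *FLO1* (6.11) and *FLO9* (6.51) share near-identical sequence with other flocculin genes, so that reads could be split among them. All 6 anaerobic mannoproteins were upregulated (median 7.55), with *TIR2* at 50052, 58596 and 37518 in +Rap+Man, against 222, 178 and 209 in -Rap+Man and *TIR4* at 81665, 88637 and 65174 normalized counts in +Rap+Man, against 415, 555 and 605 in -Rap+Man. Of 18 seripauperins tested of 22 counted, 17 were upregulated (median 5.24). This family is nearly all near-identical copies, and 1 member, *PAU5*, was left as called when only genes without overlap or copy were used. Without any single +Rap+Man sample (replicate 1, 2 or 3) 11 were called, and 10 were with at least 10 counts in every sample. Members near 0 in -Rap+Man, such as *PAU20* (1, 2 and 2 raw counts), entered the test only through +Rap+Man and could only be called up. With 1 +Rap+Man sample left out they could not pass the filter of 3 samples. *DAN1* was in the same position, and 5 anaerobic mannoproteins were called with at least 10 counts in every sample. *PAU24* had 202394, 247069 and 208127 in +Rap+Man, against 18.7, 16.4 and 27.1 in -Rap+Man, but reads of its copies cannot be assigned with certainty.

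Of 14 aerobic mannoproteins and PIR proteins, which are covalently bound wall proteins of aerobic cells, 8 were upregulated and none fell (median 1.21). *PIR3* had 217933, 239257 and 175489 normalized counts in +Rap+Man, against 6706, 5412 and 5129.9 in -Rap+Man, *TIP1* had 355717, 375917 and 375260.5 in +Rap+Man, against 10592, 7609 and 15744 in -Rap+Man, and *CWP1*, whose -Rap+Man samples spread widely, had 322943, 309214 and 253197 in +Rap+Man, against 40117, 22164 and 15364 in -Rap+Man. The abundant wall protein *CCW12* had 311357, 351386 and 269731 in +Rap+Man, against 326836, 219406 and 239383 in -Rap+Man and did not pass the test (log2 fold change 0.26, adjusted p = 0.38). Scaling by library totals alone left 5 of the 14 as upregulated. Of 20 enzymes of glucan and chitin, 6 were upregulated, among them *CRR1* (log2 fold change 2.49), a glycosidase of the spore wall, *KNH1* (2.36), *FKS3* (2.30) and *GSC2* (1.93), which encodes the alternative catalytic subunit of glucan synthase.

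Genes for the use of sugars other than glucose rose, as did most hexose transporter genes. Of 11 sucrose and maltose genes tested, 10 were upregulated (median 5.76). *SUC2*, the secreted invertase, had 396293, 387233 and 326754 normalized counts in +Rap+Man, against 3059.7, 2551 and 3007 in -Rap+Man (7.01, standard error 0.15), with no overlap and no copy. The isomaltase *IMA1* had 46744, 58243 and 43949.7 in +Rap+Man, against 224, 227 and 172 in -Rap+Man (7.89, standard error 0.16), and the maltase *MAL12* (8.83) is a near-identical copy of *MAL32* (7.07). Of the 7 major hexose transporters, 6 were upregulated. The high-affinity transporter *HXT2* had 386998, 374688 and 308208 in +Rap+Man, against 11607, 12863 and 13480.0 in -Rap+Man (4.81, standard error 0.16) and *HXT4* had 376081, 439619 and 324089 in +Rap+Man, against 24669, 23859.9 and 31918 in -Rap+Man (3.83, standard error 0.20). *HXT1*, the low-affinity transporter of high glucose, had 78111, 90510.0 and 69864 in +Rap+Man, against 41574, 37303 and 53141 in -Rap+Man and did not reach the fold threshold (log2 fold change 0.86, adjusted p = 0.0043). All 8 minor hexose transporters were upregulated (median 7.03), or 6 without any single +Rap+Man sample (replicate 1, 2 or 3). Members near 0 in -Rap+Man entered the test through the +Rap+Man samples, and 5 were called where at least 10 counts were asked of every sample. In *HXT10*, which has no copy, the +Rap+Man samples had 5969, 9499 and 12214 normalized counts and the -Rap+Man samples 19.4, 19.5 and 19.1, and *HXT8* rose by 3.16 on the log2 scale. *HXT13* (62553, 94039.6 and 59959 in +Rap+Man, against 14.4, 8.6 and 6.2 in -Rap+Man), *HXT15* and *HXT16* are near-identical to one another or to *HXT17*, and with only genes free of overlap and copy 2 of the list were called.

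Of 10 polyol and alternative sugar dehydrogenases 8 were upregulated, led by the mannitol dehydrogenase *DSF1* (10.21) and the sorbitol dehydrogenase *SOR1* (8.02), both with near-identical copies. Without a +Rap+Man sample (replicate 1 or 3) 5 of the 10 were called, as were 5 with library totals alone, and 6 were called with at least 10 counts in every sample. *MAN2* (0, 1 and 0 raw counts in -Rap+Man) and *SOR2* (9, 7 and 6) entered the test only through the +Rap+Man samples and could only be called up. Of 6 galactose genes 5 were upregulated, with the permease *GAL2* at 768, 657 and 589.9 normalized counts in +Rap+Man, against 29.4, 20.3 and 30.8 in -Rap+Man and the transferase *GAL7* at 249, 131 and 169 in +Rap+Man, against 31.9, 29.6 and 33.9 in -Rap+Man. *GAL4*, the activator, was called too (2.28) but overlaps a gene on the opposite strand. Of 16 genes of glucose sensing and hexose phosphorylation, 7 were upregulated and the median was 0.34, which changed sign with library totals alone. The hexokinase *HXK1* had 70112, 72049.6 and 57921 in +Rap+Man, against 8436, 4802 and 3239 in -Rap+Man, *EMI2* had 31139, 34836 and 31105 in +Rap+Man, against 5595, 3212 and 2693 in -Rap+Man and the phosphatase subunit *REG2* had 2410.1, 1732 and 2504 in +Rap+Man, against 120.0, 115 and 107 in -Rap+Man. The glucose repressor gene *MIG1* had a log2 fold change of 0.13 and did not pass the test (adjusted p = 0.55). Of 9 enzymes that take mannose into GDP-mannose and onto proteins, only *PMT3* was called (1.16, standard error 0.18). Phosphomannomutase *SEC53* (0.62, adjusted p = 0.011) and *PSA1* (-0.66, adjusted p = 0.033) did not pass.

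Mig1p, the glucose repressor that brings Cyc8p-Tup1p to such promoters, binds GC-rich hexamers. The hexamers searched were CCCCAC and the variants that differ in the last letters, namely CCCCAG as well as CCCCGC and also CCCCGG. They were sought on both strands of the 500 bases before each start codon in the RefSeq R64 sequence of S288c, from which the strain used can differ. All 11 sucrose and maltose genes held one, as did 10 of 17 gluconeogenesis genes and 9 of 16 glucose sensing genes, against 22.5% of the 5753 windows of all protein-coding genes tested, 34.8% of the upregulated and 18.1% of the downregulated genes. Shown are the matches nearest to the start codon of named upregulated genes, with the hexamer in capitals, beside the increases given above and below. A match is a description of the letters and not a measured site.
IMA1: taccacagtttaCCCCAGaatgagaaagga
MAL12: aattttcgcggaCCCCACacaattaagaat
HXK1: gtttctttctccCCCCGGattttggtacct
EMI2: gtgacaaaaaacGCGGGGcatccagaaagt
PCK1: agtaaggcttggCTGGGGatagcaacattg
These lie at chrVII:1069152-1069181, minus strand, 178 bases before the start codon (*IMA1*), chrVII:1076292-1076321, plus strand, 295 bases before the start codon (*MAL12*), chrVI:255336-255365, minus strand, 304 bases before the start codon (*HXK1*), chrIV:1476766-1476795, minus strand, 307 bases before the start codon (*EMI2*) and chrXI:630861-630890, plus strand, 279 bases before the start codon (*PCK1*), each written 5′ to 3′ on the strand of its gene. *EMI2* and *PCK1* hold the hexamer on the opposite strand.

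In carbon metabolism, most genes of a list of gluconeogenesis, the glyoxylate cycle and linked transporters and regulators rose. This group is known to be kept low in glucose. Of the 17 genes of this list, 12 were upregulated and none fell (median 2.20). Most of the 12 encode transporters or regulators rather than enzymes. The lactate permease *JEN1* had 10597, 11726 and 10249 normalized counts in +Rap+Man, against 334, 441 and 294 in -Rap+Man, the acetate transporter *ADY2* had 1006, 779 and 858 in +Rap+Man, against 66.2, 39.8 and 52.3 in -Rap+Man, the activator *ADR1* had 9464, 7852 and 8063 in +Rap+Man, against 1388, 682 and 553 in -Rap+Man and *PCK1*, which commits carbon to glucose synthesis, had 3546, 3027 and 3317 in +Rap+Man, against 248, 346 and 376 in -Rap+Man. Every +Rap+Man value of these 4 genes exceeded every -Rap+Man value. Enzymes of the glyoxylate cycle itself were mixed. The malate dehydrogenase gene *MDH2* rose (log2 fold change 2.28). The isocitrate lyase gene *ICL1* (0.25, adjusted p = 0.16), *MLS1* (1.17, adjusted p = 0.016) and *CIT2* (-0.71, adjusted p = 0.17) did not pass the test of limma. Of 16 glycolytic genes, 7 were upregulated (median 0.90), led by the minor isozymes *TDH1* (432804, 471775 and 392866 in +Rap+Man, against 46407, 27608 and 40521 in -Rap+Man) and *GPM2* (1569, 1371 and 1350.2 in +Rap+Man, against 237, 227 and 158 in -Rap+Man). Another minor isozyme, *GPM3*, had a log2 fold change of -0.92 and was not called (adjusted p = 9.7e-04). Library totals alone gave 3 of the 16 as upregulated and 1 as downregulated. *TDH1* has a near-identical copy, so that reads could be split, and with only genes free of overlap and copy 4 glycolytic genes were upregulated. The pyruvate decarboxylases *PDC6* (808, 702 and 756 in +Rap+Man, against 65.6, 40.6 and 44.3 in -Rap+Man) and *PDC5* (190484, 418809 and 134825 in +Rap+Man, against 10517, 27980.5 and 23596 in -Rap+Man) rose. Replicate 2 of *PDC5* was the highest among the +Rap+Man samples. Among aldehyde dehydrogenases *ALD4* (2.50) rose, while *ALD5* had 1722, 1622 and 2054 in +Rap+Man, against 4653, 3756 and 5512 in -Rap+Man and fell by 1.36 on the log2 scale. *ADH1* had a log2 fold change of 0.09 (adjusted p = 0.78).

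The respiratory machinery itself moved little. Of 36 genes of the respiratory chain and ATP synthase, 2 were upregulated and none fell (median 0.27, which changed sign with library totals alone). These were the external NADH dehydrogenase *NDE2*, with 3744, 2295 and 3829 normalized counts in +Rap+Man, against 122, 115 and 94.2 in -Rap+Man, and *CYC7*, the hypoxic isoform of cytochrome c, with 8732, 9689 and 8247 in +Rap+Man, against 622, 813 and 354 in -Rap+Man. The aerobic isoform *CYC1* had 10898, 13360.4 and 9892 in +Rap+Man, against 24606, 18447 and 16069.9 in -Rap+Man and missed the fold threshold (log2 fold change -0.78, adjusted p = 0.0072). Of 17 genes of the TCA cycle 3 were upregulated, with *CIT3* at 2.06 and *SDH4* at 1.13, and 5 were upregulated without -Rap+Man replicate 1. None of 56 mitochondrial ribosomal protein genes was called by limma (median -0.31). At an adjusted p of at most 0.01 without the fold threshold 1 was higher and 8 were lower, against 1268 and 982 of all 6325 genes. Library totals alone gave 18 as downregulated, against 1782 of all genes.

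Most listed genes of low oxygen and of sterol uptake and its regulation rose, while sterol synthesis split. Rox1p represses hypoxic genes through Cyc8p-Tup1p. Of 13 hypoxic and Rox1p-regulated genes, 9 were upregulated and none fell (median 1.37). With library totals alone 6 were up- and 1 was downregulated. Called members *AUS1*, *PDR11* and *UPC2* are also counted in the sterol uptake list below. *COX5B* (log2 fold change -0.21), *OLE1* (-0.21) and *MOT3* (-0.53) were below 0 and not called. *ANB1*, the hypoxic form of translation factor eIF5A, had 11076, 14684 and 9483 normalized counts in +Rap+Man, against 107, 55.4 and 81.3 in -Rap+Man (7.16, standard error 0.25), with the caution that it is a near-identical copy of *HYP2*. The hypoxic ADP/ATP carrier *AAC3* had 2738, 3324 and 2512 in +Rap+Man, against 206, 167 and 203 in -Rap+Man, and *HEM13* of heme synthesis had 21519, 23516 and 19026 in +Rap+Man, against 3369, 2185 and 5102 in -Rap+Man. The core ATTGTTC of the Rox1p site, searched on both strands of the same 500 bases, occurred before 5 of the 13 genes and before 11.9% of all genes tested, 13.1% of the upregulated and 6.25% of the downregulated genes. *ANB1* held 3, and the one nearest to its start codon is shown, in capitals, as the gene of this list with the largest increase (chrX:525578-525607, minus strand, 214 bases before the start codon).
ANB1: gtttcctattccATTGTTCtctttggtaaa
The sterol importers *PDR11* (7315, 6845 and 5918 in +Rap+Man, against 1079, 668 and 760.3 in -Rap+Man) and *AUS1* (6389, 6546 and 5923 in +Rap+Man, against 991, 845 and 1016 in -Rap+Man) rose. They belong to a list of sterol uptake and regulation, which also holds transcription factors and sterol acyltransferases. Of its 9 genes 8 were upregulated, or 4 with library totals alone. The ninth, the sterol acyltransferase *ARE2*, had 1836, 1727 and 1711 in +Rap+Man, against 5247, 4418 and 4806 in -Rap+Man and fell by 1.45 on the log2 scale. Of 24 genes of ergosterol synthesis, 5 were upregulated and 4 downregulated. *ERG28* (2.17) rose, as did squalene epoxidase *ERG1*, and lanosterol synthase *ERG7* (-1.15) fell. Without -Rap+Man replicate 1 the 4 downregulated genes became 1, and with library totals alone 1 of the 24 was up- and 10 were downregulated.

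Genes of storage carbohydrate and stress protection rose in part of each list. Of 20 trehalose and glycogen genes 11 were upregulated and 1 fell. Glycogen phosphorylase *GPH1* had 43431, 40396 and 35528 normalized counts in +Rap+Man, against 4006, 2086 and 1205 in -Rap+Man and glycogen synthase *GSY1* had 8545, 7019 and 5860.0 in +Rap+Man, against 908, 519 and 158 in -Rap+Man. In both the -Rap+Man samples spread several-fold, replicate 1 being the highest and replicate 3 the lowest, and still lay below all +Rap+Man samples. The targeting subunit *GAC1* rose by 4.54 on the log2 scale. The phosphoglucomutases parted, with *PGM2* at 22468, 20285 and 17716 in +Rap+Man, against 3955, 2042 and 1003 in -Rap+Man and *PGM1* at 1983, 2235 and 1826 in +Rap+Man, against 5498, 4333 and 4664 in -Rap+Man. Of 21 genes of glycerol and osmotic stress 13 were upregulated, among them *HSP12* (213529.7, 223058 and 209498 in +Rap+Man, against 10559.5, 19367 and 16382 in -Rap+Man) and *GRE1* (3.82), besides *DAK2* and *STL1*. The glycerol importer *STL1* had 22196, 24031 and 15892 in +Rap+Man, against 44.4, 59.3 and 58.5 in -Rap+Man.

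Of 23 chaperone genes tested 9 were upregulated and none fell. *HSP26*, a small heat shock protein, had 267593, 269609.5 and 249403 in +Rap+Man, against 7178, 5352 and 5020.3 in -Rap+Man and *HSP31* had 111960.4, 102488 and 118699 in +Rap+Man, against 9310.5, 11299 and 12182 in -Rap+Man. The other members named by the rule, *HSP32* and *HSP33*, have near-identical copies. The general chaperones of the list that did not pass included *HSC82*, with 37484, 35354 and 37889 in +Rap+Man, against 49012, 39852 and 32075 in -Rap+Man, and *SSA2*, with 39199.7, 42761 and 37210.0 in +Rap+Man, against 79486, 56654 and 49526 in -Rap+Man. Of 26 antioxidant genes 10 were upregulated and 2 fell. The glutathione transferase *GTT1* had 63035, 49214 and 62756 in +Rap+Man, against 3970.1, 2580.1 and 2750.5 in -Rap+Man and cytosolic catalase *CTT1* had 14133, 12578 and 10162 in +Rap+Man, against 1946, 1244 and 770.1 in -Rap+Man. *GSH1*, which starts glutathione synthesis, had 2808, 1855 and 3845 in +Rap+Man, against 9949, 7429 and 9277 in -Rap+Man and fell by 1.70 on the log2 scale. Of 20 genes of peroxisomal fatty acid oxidation 7 were upregulated, with thiolase *POT1* at 729, 736 and 756 in +Rap+Man, against 29.4, 54.6 and 14.2 in -Rap+Man and the carnitine acetyltransferase *YAT1* at 1406, 1574 and 1283 in +Rap+Man, against 344, 300.3 and 244 in -Rap+Man. Vacuolar proteases *PRB1* (2.05), *PEP4* (1.64) and *PRC1* (1.12) were upregulated, as 3 of 4 called in a list of 9. Of 37 ATG genes 8 were upregulated, led by the selective autophagy receptors *ATG39* (2.90) and *ATG40* (1.82). The kinase gene *ATG1*, which starts autophagy, had 373, 285 and 321 in +Rap+Man, against 362, 278 and 273 in -Rap+Man and did not pass (adjusted p = 0.66). With library totals alone 2 ATG genes were up- and 6 downregulated.

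Most genes of iron uptake and of thiamine and biotin supply rose. Of 29 iron uptake genes, 20 were upregulated and none fell (median 1.86). *FIT2* and *FIT3* encode wall mannoproteins that retain siderophore-bound iron. *FIT2* had 93051, 128131 and 78535 normalized counts in +Rap+Man, against 283, 317 and 255 in -Rap+Man (8.42, standard error 0.18) and *FIT3* had 128317, 187943 and 93628 in +Rap+Man, against 831, 567 and 637 in -Rap+Man (7.61, standard error 0.25). The ferric reductase *FRE4* had 60604, 61314 and 59926 in +Rap+Man, against 249.9, 343 and 331 in -Rap+Man, the siderophore transporter *SIT1* had 30621, 39158 and 32533 in +Rap+Man, against 826, 811 and 530.0 in -Rap+Man and the multicopper oxidase *FET3* had 70035, 81809.7 and 67783 in +Rap+Man, against 9285, 9359 and 5716 in -Rap+Man. The iron-sensing activator *AFT1* itself had a log2 fold change of 0.18 (adjusted p = 0.43). Aft1p binds a CACCC core. The letters TGCACCC or the variant CGCACCC, searched as above, occurred before 23 of the 29 iron genes and before 3.79% of all genes tested, 9.08% of the upregulated and 3.12% of the downregulated genes. The match nearest to the start codon is shown for the 4 iron genes with the largest increases, with its 7 letters in capitals.
FIT2: acgaatctaactGGGTGCAgtataattagc
FRE4: cgtctaaaaattTGCACCCtatttaacata
FIT3: cattctaggaaaGGGTGCAaaaaaatgggg
SIT1: gaacacatttgaGGGTGCAatctggttcgt
They lie at chrXV:1059388-1059417, plus strand, 131 bases before the start codon (*FIT2*), chrXIV:739502-739531, plus strand, 437 bases before the start codon (*FRE4*), chrXV:1061222-1061251, minus strand, 184 bases before the start codon (*FIT3*) and chrV:27457-27486, plus strand, 188 bases before the start codon (*SIT1*). *FIT2* held 4 such matches, *FIT3* held 3 and the others 1 each.

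Of 13 copper and zinc genes 6 were upregulated, among them the metal reductases *FRE7* (10736, 13718 and 8202 in +Rap+Man, against 317, 282 and 86.8 in -Rap+Man) and *FRE1* (33401, 36154 and 32228 in +Rap+Man, against 4487, 4413 and 2049 in -Rap+Man) and the copper transporter *CTR1* (24403, 29116 and 22322 in +Rap+Man, against 4284, 3896 and 1919.5 in -Rap+Man). In all 3 genes -Rap+Man replicate 3 was the lowest sample. Of 22 thiamine and pyridoxine genes 19 were upregulated and none fell (median 2.54). *THI4*, which makes the thiazole of thiamine, had 55791, 137975 and 30609.5 in +Rap+Man, against 229, 222 and 209 in -Rap+Man, with replicate 2 the highest, and *PET18* had 2907, 4135 and 2444 in +Rap+Man, against 144, 141 and 160.1 in -Rap+Man. Of the thiamine and pyridoxine genes 11 were called when only genes without overlap or copy were used. Of 6 biotin genes 5 were upregulated, with the biotin precursor permease *BIO5* at 3562, 3019 and 3261 in +Rap+Man, against 60.6, 68.6 and 67.7 in -Rap+Man and *BIO3* at 1821, 2101 and 2176 in +Rap+Man, against 331, 353 and 350.3 in -Rap+Man.

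Other nutrient genes moved in both directions. Of 22 phosphate starvation genes 9 were upregulated and 1 fell, and that call was lost without -Rap+Man replicate 1 or 2 or +Rap+Man replicate 1 (median 0.50, which changed sign with library totals alone). The phosphate importer *PHO89* had 66248, 66379 and 75389 normalized counts in +Rap+Man, against 148, 119 and 158 in -Rap+Man and *GIT1*, which imports glycerophosphoinositol, had 39050.0, 69383 and 52176 in +Rap+Man, against 3372, 2132 and 2336 in -Rap+Man. The main inducible phosphate transporter *PHO84* did not reach the fold threshold (log2 fold change 0.76, adjusted p = 0.0097) and overlaps a gene on the opposite strand. Of 29 nitrogen catabolite genes 5 were upregulated and 5 fell. Ornithine transaminase *CAR2* (1445, 1463 and 1052 in +Rap+Man, against 281, 197 and 116 in -Rap+Man) and the urea permease *DUR3* (2137, 2784 and 1659 in +Rap+Man, against 810.4, 447 and 547 in -Rap+Man) rose. The ammonium permease *MEP2* (2955, 2377 and 2509 in +Rap+Man, against 10823, 7454 and 13787 in -Rap+Man), the activator *GAT1* (989, 1145 and 1108 in +Rap+Man, against 5410.3, 3416 and 3276 in -Rap+Man) and glutamine synthetase *GLN1* (11904, 15184 and 14053 in +Rap+Man, against 30301, 24570.5 and 36516 in -Rap+Man) fell. Library totals alone gave 4 of the 29 as upregulated and 13 as downregulated, and 5 and 4 of the 22 phosphate genes. Of 20 amino acid permeases 3 rose, with *ALP1* at 3038, 3027 and 2673 in +Rap+Man, against 464, 262 and 269.6 in -Rap+Man, and 2 fell, with *DIP5* at 1649, 1025 and 1734 in +Rap+Man, against 5108, 3119.9 and 4354 in -Rap+Man.

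Genes of amino acid synthesis moved in both directions. Of 39 genes in the general list 3 were upregulated and 6 downregulated, or 4 and 4 with RLE scaling (relative log expression) and with genes without overlap or copy, and *ASN1* had 8529, 10437 and 11833 normalized counts in +Rap+Man, against 30178, 24812 and 29638 in -Rap+Man, *HIS4* had 1528, 1980.5 and 1839 in +Rap+Man, against 4974, 3145 and 5646 in -Rap+Man and *GDH3*, which rose, had 2146, 2170.3 and 2399 in +Rap+Man, against 349, 308 and 342 in -Rap+Man. The general activator *GCN4* had a log2 fold change of 0.60 (adjusted p = 0.016). Of 11 branched-chain genes none rose and 2 fell, *LEU1* (1544, 1572 and 1686 in +Rap+Man, against 4899, 4238 and 4512 in -Rap+Man) and *LEU9* (2530.1, 2467 and 2750.3 in +Rap+Man, against 7382, 6376 and 7035 in -Rap+Man). Of 29 genes of sulfate uptake and methionine synthesis 2 rose, and *SAM2* and *CYS4* (-1.08) fell. Without +Rap+Man replicate 3 the number that fell was 4. Of 22 genes of purine and one-carbon synthesis 1 fell and none rose, and 0 were called without +Rap+Man replicate 1, 2 or 3 and 2 with the replicate block. With library totals alone the downregulated genes of these 4 lists numbered 17, 7, 11 and 13. Of 18 aromatic and Ehrlich pathway genes 1, *ARO10*, fell and none rose, and 8 were downregulated with library totals alone. Of 16 nucleobase permease and pyrimidine genes 2 rose and none fell, and 0 were called without -Rap+Man or +Rap+Man replicate 2 and 1 without -Rap+Man replicate 1 or +Rap+Man replicate 1 or 3. Of 13 genes of NAD synthesis and nicotinic acid uptake 1 rose and 1 fell.

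Ribonucleotide reductase, which makes the precursors of DNA, is held down by Crt1p (the product of *RFX1*) with Cyc8p-Tup1p until DNA is damaged. Of the 9 genes of this list 4 were upregulated and none fell. *RNR3* had 27253, 29224 and 23420.1 normalized counts in +Rap+Man, against 287, 235 and 227 in -Rap+Man (6.73, standard error 0.14), *HUG1* had 8271, 10287 and 7875 in +Rap+Man, against 162, 139 and 124 in -Rap+Man (5.94, standard error 0.16), *RNR4* had 156587, 170489 and 157247 in +Rap+Man, against 14374, 15018 and 15058 in -Rap+Man (3.44, standard error 0.14) and *RNR2* had 161188, 166558 and 148307 in +Rap+Man, against 31346, 20613 and 23537 in -Rap+Man (2.68, standard error 0.19). All 4 were apart by several-fold in every sample. *RNR1*, the large subunit of the cell cycle, had 20305, 27339.9 and 16685 in +Rap+Man, against 17598, 12274 and 11349 in -Rap+Man and a log2 fold change of 0.64 (adjusted p = 0.037), and the kinase *DUN1* of the damage pathway had -0.17 (adjusted p = 0.36). The core TTGCCATGG of the Crt1p site (the X box), searched on both strands, stood before 2 of these genes, *RNR3* (chrIX:240960-240989, minus strand, 270 bases before the start codon) and *RNR2* (chrX:391956-391985, plus strand, 437 bases before the start codon), and before 0.382% of all genes tested, 0.597% of the upregulated and 1.25% of the downregulated genes. Both are shown with the core in capitals, which in *RNR2* is on the opposite strand.
RNR3: caaaaacccggTTGCCATGGcgaggaccaa
RNR2: acgcgcgatcgCCATGGCAAcgaggtcgca

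Among the DNA-binding repressors that bring Cyc8p-Tup1p to promoters, 10 of 16 were upregulated and none fell (median 1.27). *NRG1* had 13964, 11285 and 11320.0 normalized counts in +Rap+Man, against 995, 877 and 2432 in -Rap+Man, *NRG2* had 3405, 3015 and 4185 in +Rap+Man, against 545, 608 and 1209.7 in -Rap+Man and *XBP1*, a repressor of stationary phase, had 5042, 3314 and 3707 in +Rap+Man, against 619.8, 386 and 425 in -Rap+Man. -Rap+Man replicate 3 was the highest of its group in *NRG1* and *NRG2* and still lay below all +Rap+Man samples. Of 12 regulators of filamentation, a list that shares *NRG1*, *NRG2*, *PHD1* and *SOK2* with the first, 7 were upregulated, with *TOS8* at 2473, 2623 and 2587 in +Rap+Man, against 137, 218 and 301 in -Rap+Man and *MGA1* at 1229, 927 and 877 in +Rap+Man, against 119, 143 and 271 in -Rap+Man. Library totals alone left 6 of 16 and 4 of 12 as called. Of 17 genes of the Cyc8p-Tup1p complex and histone deacetylases none rose, and 1 fell, *SIN3*, the scaffold of the Rpd3p deacetylase, which was at the threshold (log2 fold change -1.01). It was no longer called without -Rap+Man replicate 1 (-0.93) or +Rap+Man replicate 3 (-0.98), with RLE scaling (-0.97), with genes without overlap or copy (-0.96) or with at least 10 counts in every sample. Library totals alone gave 11 of the 17 as downregulated.

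Of 7 a-specific genes 4 were upregulated, with the agglutinin subunit *AGA2* at 6950.3, 4606 and 6729 normalized counts in +Rap+Man, against 1953, 1357 and 1445 in -Rap+Man and the pheromone gene *MFA2* at 37161, 35029.8 and 34944 in +Rap+Man, against 11454, 11908 and 11919 in -Rap+Man. The receptor *STE2* had a log2 fold change of 0.34 (adjusted p = 0.094). Of 4 alpha-specific genes 1 was called, *MF(ALPHA)1*, from a low level, while *SAG1* had 1282, 945 and 1215 in +Rap+Man, against 1138, 753 and 872 in -Rap+Man and *STE3* a log2 fold change of 1.48 (adjusted p = 0.036). With the replicate block 2 of the 4 were called. Of 23 pheromone response genes 5 were upregulated, led by *PRM4* (4569, 2682 and 3597 in +Rap+Man, against 389.9, 338 and 797 in -Rap+Man) and *PRM5* (5803, 4963 and 5805 in +Rap+Man, against 1133, 1453 and 1479 in -Rap+Man), and 3 were called without +Rap+Man replicate 1 and 2 with library totals alone, where 2 others were downregulated. Of 42 meiosis and sporulation genes tested 11 were upregulated and 1 fell, against 8 and 7 with library totals alone. *DIT1*, *DIT2* and *SPO20* (2299, 2143 and 2335 in +Rap+Man, against 34.4, 32.8 and 21.5 in -Rap+Man) belong to spore wall and membrane formation. The meiotic inducer *IME1* had 2755, 1838 and 1783 in +Rap+Man, against 85.0, 75.7 and 89.9 in -Rap+Man, whereas *NDT80*, the activator of middle sporulation genes, had 256, 127 and 205 in +Rap+Man, against 159, 172 and 206 in -Rap+Man and did not pass (adjusted p = 0.83).

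Genes of mitosis and of daughter cell separation fell in a large share of their lists. Of 10 daughter cell separation genes, whose products dissolve the septum after division under the activators Ace2p and Swi5p, 8 were downregulated and none rose (median -1.49). *DSE2* had 6276, 6145 and 5535 normalized counts in +Rap+Man, against 36455, 20494 and 27635 in -Rap+Man, *DSE4*, a glucanase, had 1488, 1518 and 1188 in +Rap+Man, against 8746, 4890.4 and 5869.8 in -Rap+Man, *EGT2* had 5555, 5781 and 4191 in +Rap+Man, against 23828, 15060.4 and 16006 in -Rap+Man and *SCW11* had 4387, 4845 and 3326 in +Rap+Man, against 17715, 9456 and 10164 in -Rap+Man. All +Rap+Man samples lay below all -Rap+Man samples, among which replicate 1 was the highest in each of the 4. Of 17 genes of the G2/M cluster 9 were downregulated and none rose, and all 17 log2 fold changes were below 0, from -2.01 to -0.28. The cyclin *CLB2* had 415, 453 and 436 in +Rap+Man, against 2096, 1900.0 and 1347 in -Rap+Man, the activator *SWI5* had 575, 550.5 and 423 in +Rap+Man, against 2086, 1558 and 1215 in -Rap+Man and the cytokinesis gene *HOF1* had 453, 427 and 326 in +Rap+Man, against 1596, 1208 and 864 in -Rap+Man. The shared core ACCAGC of Ace2p and Swi5p, on either strand of the 500 bases, stood before 5 of the 10 separation genes and 13.3% of all genes tested, 13.7% of the upregulated and 18.1% of the downregulated genes. It is shown in capitals for *DSE2* and *EGT2*.
DSE2: aacttcaagtaaACCAGCaatatcgacttc
EGT2: tatgagtaagatGCTGGTttgatgctaaga
They lie at chrVIII:385236-385265, plus strand, 262 bases before the start codon (*DSE2*) and chrXIV:23839-23868, plus strand, 197 bases before the start codon (*EGT2*). Each gene held 2 such matches, and the core is on the opposite strand in *EGT2*.

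Of 22 genes of G1 and S phase none rose and 4 fell, with *PCL9* at 512, 463 and 416 in +Rap+Man, against 2512, 1639 and 1370.3 in -Rap+Man. With RLE scaling 2 were called lower, and 1 was without -Rap+Man replicate 1. Of 10 histone genes 2 were downregulated, and *HTB1* had 10783, 12062 and 9851 in +Rap+Man, against 25722, 21562 and 25563 in -Rap+Man (log2 fold change -1.16). Between 1 and 5 histone genes were called when single samples were left out, the highest count without -Rap+Man replicate 1 and the lowest without +Rap+Man replicate 3. On the scale of library totals 13 of the 22 G1 and S phase genes, 9 of the 10 histone genes and 16 of the 17 G2/M genes were downregulated.

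Ribosomal genes depended on the scale. None of 137 cytosolic ribosomal protein genes rose and 1, *RPS9A*, fell (median -0.04). *RPS9A*, which has a near-identical copy, had 2792, 3125 and 3640.4 normalized counts in +Rap+Man, against 10094, 7467 and 7960.4 in -Rap+Man. As a share of all counted reads the 137 genes took 9.66% ± 0.766 in +Rap+Man and 14.8% ± 1.52 in -Rap+Man (SD, n = 3 each). With library totals alone 16 of the 137 were downregulated, against 1782 of all 6325 genes. Of 95 nucleolar ribosome assembly genes none rose and 7 were downregulated (median -0.72), with *KRE33* at 2319, 2486 and 2881 in +Rap+Man, against 5388, 5832 and 6653 in -Rap+Man and *BMS1* at 2669, 2703 and 3327 in +Rap+Man, against 5898, 5971 and 6958 in -Rap+Man. Without the fold threshold, 67 of the 95 were lower and 1 was higher at an adjusted p of at most 0.01, against 982 and 1268 of all 6325 genes. The number downregulated was 82 with library totals alone, 4 without -Rap+Man replicate 3 and 15 without +Rap+Man replicate 3. None of 27 subunits and factors of RNA polymerases I and III was called by limma (8 were lower and 1 was higher at an adjusted p of at most 0.01, and 15 were downregulated with library totals alone). Of 30 translation factors 2 rose and none fell on the TMM scale (median -0.35), and 2 were higher and 9 lower at an adjusted p of at most 0.01 without the fold threshold. On the scale of library totals 1 was upregulated and 13 were downregulated. None of 33 proteasome genes was called (median -0.11, and 0 at that adjusted p in either direction), and 5 were downregulated with library totals alone. Of 10 reference genes none was called, but they spread from *ACT1* (190071, 185918 and 162162 in +Rap+Man, against 117779, 85356 and 93215 in -Rap+Man, log2 fold change 0.87) to *TFC1* (514, 507 and 528 in +Rap+Man, against 1265, 1010.1 and 843 in -Rap+Man, -0.99). *ACT1* was called without -Rap+Man replicate 1 (1.00), and *TFC1* without -Rap+Man replicate 3 (-1.13) or +Rap+Man replicate 1 (-1.03) or 3 (-1.02).

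Of 24 genes of multidrug transport, among them the activators *PDR1* and *PDR3*, 10 were upregulated and none fell. With library totals alone 7 were up- and 5 downregulated. *RSB1*, which moves sphingoid bases, had 15286, 15158 and 13925 normalized counts in +Rap+Man, against 619, 445 and 354 in -Rap+Man and *PDR15* had 41955, 38758 and 31805 in +Rap+Man, against 1819.5, 1061 and 1009 in -Rap+Man. Their activators *PDR1* (-0.62, adjusted p = 0.0068) and *PDR3* (0.18, adjusted p = 0.39) were not called. Of 18 genes of phospholipid and fatty acid synthesis 3 rose, with inositol-phosphate synthase *INO1* at 1130.2, 1176 and 1206 in +Rap+Man, against 259, 257 and 189.6 in -Rap+Man, and 2 fell, or 1 without -Rap+Man replicate 1 or +Rap+Man replicate 2 or 3. Of 5 aryl-alcohol dehydrogenase genes 2 rose, or 1 without -Rap+Man replicate 1 or 2 or +Rap+Man replicate 1 or 3. Of 10 COS genes tested, a subtelomeric family, 8 were upregulated, and all 8 have near-identical copies. Library totals alone left 2 of them as called.

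Upregulated genes were more frequent near chromosome ends. Of genes within 10 kb of an end 52.5% of 80 tested were upregulated, and 56.4% of 110 at 10 to 20 kb, 34.3% of 137 at 20 to 30 kb, 19.1% of 304 at 30 to 50 kb, 11.1% of 793 at 50 to 100 kb and 12.4% of 4469 further in. For genes with no near-identical copy the shares were 37.9% of 29, 44.4% of 72, 29.5% of 122, 19.2% of 291, 10.7% of 763 and 12.1% of 4268. The downregulated share stayed between 2.30% and 3.65% in all 6 bins of all genes. Of the upregulated genes 555 lay more than 100 kb from an end. Levels in -Rap+Man also differed along this axis, with a median of 93.8 normalized counts in the outermost bin and 1525 in the innermost one, and the part of level in this pattern was not tested. When genes with a known length were put in 10 bins of equal size by level per kilobase of gene length in -Rap+Man, 47.5% of the lowest bin were upregulated and between 7.13% and 20.5% of each other bin. A gene near 0 in -Rap+Man could enter the test only through +Rap+Man, and 73 upregulated genes had fewer than 10 normalized counts in all 3 -Rap+Man samples.

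**Figure D4:**
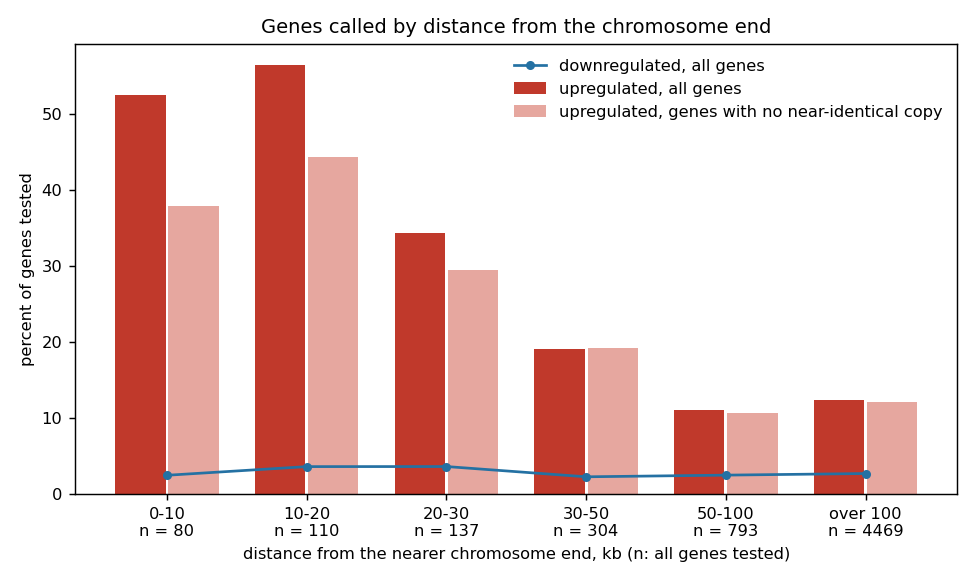
Percent of tested genes that were called, by distance from the nearer chromosome end in kb. Dark bars show upregulated genes among all genes, light bars those among genes with no near-identical copy, and blue points downregulated genes among all genes. The dark bars are 52.5% and 56.4% in the outer bins and 12.4% beyond 100 kb.

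Shares of all counted reads use no TMM factor and so carry the scale of library totals. The 5 flocculin genes took 0.795%, 0.820% and 0.817% of counted reads in +Rap+Man, against 0.00575%, 0.00575% and 0.00504% in -Rap+Man. The 6 anaerobic mannoprotein genes took 1.48% ± 0.128 in +Rap+Man and 0.00777% ± 0.00138 in -Rap+Man (SD, n = 3 each). The sucrose and maltose genes took 1.18% ± 0.0625 in +Rap+Man and 0.0206% ± 0.000441 in -Rap+Man, and the major hexose transporters took 2.42% ± 0.156 in +Rap+Man and 0.602% ± 0.133 in -Rap+Man. Glycolytic genes took 14.7% ± 0.291 in +Rap+Man and 11.5% ± 1.43 in -Rap+Man, and iron uptake genes took 1.38% ± 0.126 in +Rap+Man and 0.205% ± 0.0264 in -Rap+Man. The daughter cell separation genes took 0.128% ± 0.0129 in +Rap+Man and 0.556% ± 0.12 in -Rap+Man. The groups did not overlap in any of the 12 lists plotted, which were chosen with earlier results of these data known. An exact two-sided permutation test over samples gave p = 0.10 in each. This is the smallest value that 3 against 3 samples can give. Most of the 64 lists gave it, so it does not set the 12 apart. In some lists not plotted the groups overlapped. TCA cycle genes took 0.5575%, 0.4681% and 0.4869% in +Rap+Man, against 0.5841%, 0.5118% and 0.3956% in -Rap+Man. Genes of ergosterol synthesis took 1.268%, 1.305% and 1.266% in +Rap+Man, against 1.31%, 1.295% and 1.263% in -Rap+Man.

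**Figure D5:**
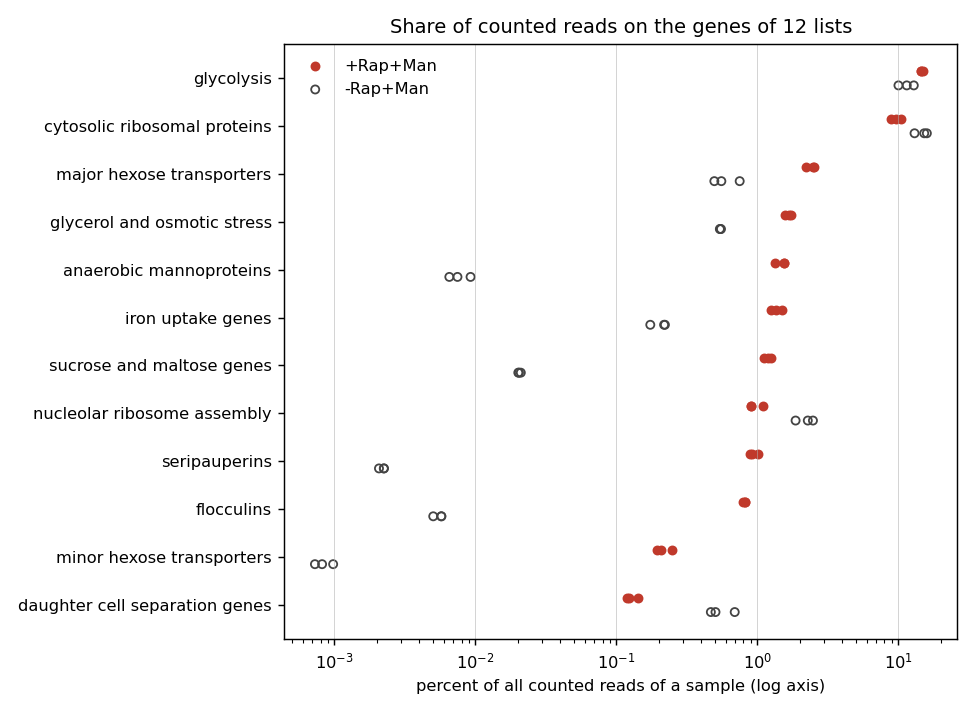
Percent of all counted reads of a sample that fell on the genes of 12 lists, on a log axis, with 1 point per sample, filled for +Rap+Man and open for -Rap+Man. In 9 lists the filled points lie to the right of the open points, and in the cytosolic ribosomal proteins, nucleolar ribosome assembly genes and daughter cell separation genes they lie to the left.

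The experiment without mannose, in which the depleted cells flocculated, was used only to ask where the ratios differed. With all 12 samples in one model of 6403 genes, the ratio of depleted over undepleted samples was higher with mannose for 167 genes (2.61%) and lower for 74 genes (1.16%), where limma gave an adjusted p no larger than 0.01 and the log2 difference reached 1. Read type and sequencing run were not the same in the experiments and cannot be told apart from mannose. Members with a higher ratio with mannose numbered 9 of the seripauperins, 6 of the iron uptake genes, 5 of the phosphate starvation genes, 4 each of the sucrose and maltose genes, the minor hexose transporters and the thiamine and pyridoxine genes, and 3 each of the a-specific genes, the polyol dehydrogenases and the meiosis genes. Some seripauperins and minor hexose transporters were near 0 in -Rap+Man, such as *PAU20* (1, 2 and 2 raw counts) and *HXT16* (0, 0 and 1). Their ratio with mannose depends on the count added. Of the 22 seripauperins 21 have near-identical copies, whose reads cannot be assigned with certainty. Members with a lower ratio numbered 4 of the G2/M cluster. In its own fit the experiment without mannose called 0 of the 17 G2/M genes as downregulated, and 2 of the 10 separation genes. From each experiment's own fit, *SWI5* had a log2 fold change of -1.62 with mannose and -0.04 without (difference in the joint model -1.62, standard error 0.27, adjusted p = 0.0026), and *MFA1* had 1.88 with mannose and -0.35 without (difference 2.20, standard error 0.35, adjusted p = 0.0017).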

How the data were processed

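RNA-seq reads of the +Rap+Man and -Rap+Man samples came from single-end, strand-specific, rRNA-depleted libraries. Per the labels and the study's methods, the authors trimmed reads with fastp 0.20.0 and aligned them with STAR 2.7.3 to the S288c genome of ENSEMBL. The annotation release and the counting tool are not given in the sources used here. The deposited values are the authors' raw counts per gene, written with commas inside the numbers, which were removed. A table of normalised counts and tables of the authors' own fold changes and p-values were not used.

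All values were whole numbers once the commas were removed, but no count model was run, and limma was used throughout. Genes with too few counts were left out (at least 10 in the median library, in 3 samples, and 15 in total), and limma 3.58.1 (R 4.3.3, lmFit and eBayes with trend, two-sided) was fitted to the log2 of the TMM-scaled count with 2 added. Normalized counts refer to a library of 37220945 reads, the average over the 12 samples. The procedure was tested on simulated data. Sequences and positions were read from the RefSeq R64 genome and annotation, in which 6216 of the 6775 genes were found, and a near-identical copy is another gene with at least 90% identity over at least 50% of the length (BLAST 2.17.0). Share intervals were not computed. The p-values of limma rest on the spread within both groups of 3 samples, moderated toward a trend with level over all genes.

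The members, lists and tests were chosen with earlier results of these data known. Genes were named by a rule: the targeted and partner genes, *FPR1*, flocculins and reference genes. The rule added the 12 largest changes each way among called genes with at least 50 raw counts in every sample of the higher group and no near-identical copy, and up to 4 called members per list and direction, or the 2 most abundant where fewer than 2 were called. The genes *CCW12*, *SUC2*, *HXT1*, *HXT4*, *HXT8*, *HXT17*, *MIG1*, *ICL1*, *GPM3*, *ADH1*, *CYC1*, *HYP2*, *HEM13*, *PGM2*, *HSC82*, *SSA2*, *ATG1*, *FET3*, *AFT1*, *PHO84*, *GCN4*, *RFX1*, *RNR1*, *DUN1*, *PHD1*, *SOK2*, *STE2*, *STE3*, *IME1*, *NDT80*, *PDR1* and *PDR3* were chosen after their values were seen. The same holds for *MDH2*, *MLS1*, *CIT2*, *UPC2*, *COX5B*, *OLE1* and *MOT3*. Samples with the same replicate number, given in the titles, deviated together from their group means (correlations 0.470, 0.203 and 0.226, against -0.332 to 0.145 for different numbers), so the numbers were taken to pair the samples. The main fits did not use this pairing. All p-values and calls above ignore it, except where the replicate block is named, and counts with that block are given below.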

Additional observations from a re-analysis of the deposited data

Results flagged for a closer look

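In 13 of the genes named as target, partner, flocculin or among the largest changes, the ratio of depleted over undepleted samples differed between the experiments with and without mannose in limma's test of the difference. Over all genes in that test, 2.61% had a higher and 1.16% a lower ratio with mannose. Most of the 13 were named for their large fold change with mannose. The test uses the same 6 samples, so this choice favours a more extreme ratio with mannose. Read type and sequencing run changed with mannose and cannot be told apart from it. Of the cell wall genes, *DAN1* had a log2 fold change of 14.05 with mannose and 10.73 without, a difference of 3.35 (adjusted p = 0.000159), and *TIR1* one of 12.18 with and 10.36 without, a difference of 1.79 (adjusted p = 0.0005). *DAN1* had 5, 1 and 8 raw counts in -Rap+Man, so its value with mannose depends on the count added. The flocculin genes *FLO5* (6.13 with, 7.16 without, difference -1.05, adjusted p = 0.00881) and *FLO9* (6.51 with, 5.30 without, difference 1.19, adjusted p = 0.00634) moved in opposite directions, and *FLO9* has a near-identical copy. For *PRY3* the difference was -1.24 (adjusted p = 0.00562). The spore wall genes *DIT1* (difference 2.31, adjusted p = 0.00219) and *DIT2* (2.39, adjusted p = 0.000347) had higher ratios with mannose. The same held for the transporters *HXT10* (3.90, adjusted p = 0.0002), *STL1* (2.99, adjusted p = 1.12e-05) and *PHO89* (2.32, adjusted p = 0.00372), for the kinase *DAK2* (2.88, adjusted p = 2.97e-06) and for *GID10* (3.82, adjusted p = 3.55e-06). The uncharacterized *YLR112W* had a difference of -1.51 (adjusted p = 0.00112).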

How the results depend on the processing

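With library totals alone, an alternative chosen after seeing the data, 596 genes were upregulated and 1782 downregulated, against 939 and 164. Leaving out single samples gave 795 to 964 upregulated and 141 to 191 downregulated genes. The other alternatives (RLE scaling, 0.5 or 8 counts added, other filters, an adjusted p of 0.05, voom weights, thinning and genes without overlap or copy) gave 747 to 1000 and 122 to 178. With the replicate block, which uses the pairing of samples by number, 978 genes were up- and 168 downregulated, and 223 genes had a higher and 94 a lower ratio with mannose, against 167 and 74. Counting only genes without overlap or copy, the share of reads in +Rap+Man was 0.741% for flocculins, 0.0972% for seripauperins, 1.02% for sucrose and maltose genes, 0.0223% for minor hexose transporters, 5.54% for glycolysis and 5.73% for cytosolic ribosomal proteins, because members were removed. Of the 258 named genes, of which 230 were called, 23 lost their call when some single sample was left out and 2 gained one. Library totals alone removed 27 calls of named genes and added 7, and 14 named genes that were not called on either scale changed sign. Apart from these 27, 5 named genes lost their call under one of the remaining alternatives. No called named gene changed direction under the alternatives run. The replicate block moved a list's count by more than 1.5 times in the alpha-specific genes and in purine and one-carbon synthesis, and in no other list. Calls of genes near 0 in -Rap+Man are limited by depth, and their fold changes depend on the count added.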
